A study of Mus musculus with 16 samples.

Results

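The genes described here are 10 members of the homologous recombination and Fanconi repair pathways, Brca1, Brca2, Rad51ap1, Rad54l, Rad18, Fanca, Fancd2, Blm, Chek1 and Mnd1. They were chosen with earlier results of these data known and were taken by name. Every probeset that the array annotation gives to exactly 1 of these symbols was used. This yielded 30 probesets for the 10 genes, out of 45037 probesets and 18193 genes tested. Each gene was read from its brightest probeset, the one with the highest mean over all arrays, and the remaining probesets are described beside it.

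Affymetrix MOE430 2.0 arrays were hybridised with total RNA from 4 samples of normal, wild type mouse skin (control skin) and from 12 squamous cell carcinomas of mouse skin, all on the FVB background. The p53 tumors (n = 7) arose in k14Cre;p53loxP/loxP mice, in which Cre recombinase under the keratin 14 promoter removes p53 in stratified epithelia. The pRbp53 tumors (n = 5) arose in k14Cre;p53loxP/loxP;pRbloxP/loxP mice, which lose pRb, the product of Rb1, as well as p53 in the same cells. Loss of p53 is thus shared by all 12 tumors, and stroma and vessels within a tumor keep both genes. By histology the p53 tumors comprised 3 poorly differentiated, 1 undifferentiated and 1 spindle cell carcinoma and 2 of mixed type, and the pRbp53 tumors comprised 4 spindle cell carcinomas and 1 of mixed type. The ages of the mice are not given in the labels used here, and whether each sample is a separate animal is not stated, so p-values measure the spread between these samples, which may be partly technical.

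Homologous recombination repairs broken DNA and stalled replication forks by copying the sister chromatid. A broken end is cut back to a single strand, Brca1 and Brca2 help to prepare that strand for exchange, and Rad51ap1 and Rad54l assist it in invading the intact duplex. The Fanconi pathway removes crosslinks between DNA strands, with Fanca in the core complex that leads to ubiquitination of Fancd2, and then hands the broken end to recombination. Blm is a helicase that takes apart joint molecules, Rad18 is a ubiquitin ligase that acts on PCNA at stalled forks, Chek1 is the kinase of the replication checkpoint, and Mnd1 is known from meiosis, where with its partner Psmc3ip (Hop2) it helps Dmc1 to pair homologous chromosomes. Many genes of this kind are transcribed in S and G2 phase, so their level in a tissue also follows how many of its cells are dividing.

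Promoter sequences of the genes from RefSeq (build GRCm38.p6, 250 bases before to 50 bases after the start of the transcript) were searched on both strands, and 9 of the 10 genes had at least 1 window, 11 in all, since Rad54l and Rad18 have 2 each (Fancd2 was not matched). Brca1, Rad51ap1, Rad18, Blm and Chek1 are shown because their signal was higher in every tumor than in any control skin, and Mnd1 because it followed another pattern. For Rad18 the first of its overlapping windows is shown. Each is written 5′ to 3′ along the gene's own strand, and capitals mark matches on either strand to a 7-letter core of E2F sites (TTCCCGC or TTGGCGC or TTCGCGC or TTGCCGC) or to the CCAAT box. The windows lie at chr11:101551906-101552205 for Brca1, chr6:126939538-126939837 for Rad51ap1, chr6:112696621-112696920 for Rad18, chr7:80534949-80535248 for Blm, chr9:36726609-36726908 for Chek1 and chr3:84155737-84156036 for Mnd1, all on the minus strand.
Brca1: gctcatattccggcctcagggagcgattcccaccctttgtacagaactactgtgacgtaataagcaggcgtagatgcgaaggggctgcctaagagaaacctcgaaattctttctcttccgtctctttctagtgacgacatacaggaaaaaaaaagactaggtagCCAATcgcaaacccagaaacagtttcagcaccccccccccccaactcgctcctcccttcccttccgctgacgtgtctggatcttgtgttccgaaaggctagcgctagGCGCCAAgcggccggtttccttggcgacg
Rad51ap1: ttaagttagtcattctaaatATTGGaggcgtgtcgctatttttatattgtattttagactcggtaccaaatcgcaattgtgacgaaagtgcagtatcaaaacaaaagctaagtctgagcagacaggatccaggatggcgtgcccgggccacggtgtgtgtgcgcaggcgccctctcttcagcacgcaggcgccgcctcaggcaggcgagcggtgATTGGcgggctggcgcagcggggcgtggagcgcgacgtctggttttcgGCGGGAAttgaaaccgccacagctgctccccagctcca
Rad18: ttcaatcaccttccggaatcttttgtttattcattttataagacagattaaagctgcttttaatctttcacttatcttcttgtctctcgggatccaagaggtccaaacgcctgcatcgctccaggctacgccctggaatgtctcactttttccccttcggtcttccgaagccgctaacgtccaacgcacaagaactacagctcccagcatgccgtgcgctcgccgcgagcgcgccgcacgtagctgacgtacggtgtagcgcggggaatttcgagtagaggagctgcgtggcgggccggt
Blm: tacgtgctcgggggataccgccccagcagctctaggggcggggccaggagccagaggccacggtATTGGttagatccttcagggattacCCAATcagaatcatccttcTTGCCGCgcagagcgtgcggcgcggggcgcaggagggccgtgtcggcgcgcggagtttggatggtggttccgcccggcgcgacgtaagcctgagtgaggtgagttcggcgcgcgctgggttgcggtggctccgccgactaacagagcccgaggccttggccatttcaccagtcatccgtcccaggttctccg
Chek1: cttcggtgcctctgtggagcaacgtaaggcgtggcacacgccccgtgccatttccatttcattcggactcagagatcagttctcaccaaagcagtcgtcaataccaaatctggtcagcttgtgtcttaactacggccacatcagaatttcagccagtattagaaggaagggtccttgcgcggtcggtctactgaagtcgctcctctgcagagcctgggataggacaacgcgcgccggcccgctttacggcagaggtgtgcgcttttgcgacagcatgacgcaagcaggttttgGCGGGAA
Mnd1: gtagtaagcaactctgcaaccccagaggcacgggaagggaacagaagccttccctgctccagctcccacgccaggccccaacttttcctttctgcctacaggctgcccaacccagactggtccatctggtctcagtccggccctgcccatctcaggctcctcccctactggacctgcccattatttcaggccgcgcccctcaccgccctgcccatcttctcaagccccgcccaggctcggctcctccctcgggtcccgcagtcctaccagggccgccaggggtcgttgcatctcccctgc
Counted by gene, with a match in any of its windows, the core was present in 5 of the 9 genes, Brca1, Brca2, Rad51ap1, Blm and Chek1, against 10.9% of 27025 RefSeq genes with windows of the same length. The longer 8-letter forms (TTTCCCGC, TTTGGCGC, TTTCGCGC or TTTGCCGC), which contain the core, were present in 1 of the 9, Brca2, against 2.6%. CCAAT was present in 5 of the 9, Brca1, Rad51ap1, Rad54l, Fanca and Blm, against 41.1%. By window, the core was in 5 and CCAAT in 6 of the 11, against 9.57% and 37.4% of 32851 windows. The cell cycle motif TTTGAA was present in 0 of the 9, against 20.2% of genes. The windows of Mnd1 and Rad18 held none of these letters. These matches describe sequence and were not tested for binding. Because the 10 genes were chosen with earlier results of these data known, the shares of matches are also a description only.

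Before the results, some arrays stood apart. Actin is read by probesets at both ends of its transcript, and a 3′ signal far above the 5′ signal marks degraded RNA. On the log2 scale this difference reached 1.33 for control skin 3 and 1.67 for p53 tumor 7, and all other arrays lay at 0.21 to 0.68. Control skin 2 and 4 correlated at r = 0.9957 across probesets, against 0.9697 to 0.9843 for the other pairs of control skin. Rb1 itself spanned 8.98 to 9.54 in control skin, 7.58 to 8.5 in the p53 tumors and 7.10 to 7.94 in the pRbp53 tumors, and its difference between the genotypes of −0.36 ± 0.19 (SE) did not pass (limma adjusted p = 0.601). The position of that probeset relative to the deleted exons is not known here, so the value does not check the labels.

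The first comparison asked which of the genes differ between carcinomas and normal skin. In the tumors 7 of the 10 genes were higher at an adjusted p of 0.05 (limma over all probesets), against a background of 7.57% of all genes called higher. These 7 were Brca1, Brca2, Rad51ap1, Rad54l, Rad18, Fancd2 and Chek1. Fanca, Blm and Mnd1 did not pass, and none of the 10 fell. The median difference of the 10 genes was 1.38 on the log2 scale, beside 0.06 over all genes. Because the 10 genes were chosen with earlier results of these data known, this and the later shares and medians are a description only. Without control skin 1, without control skin 2, or with control skin 2 and 4 averaged, 4 genes passed, namely Brca1, Rad51ap1, Rad18 and Chek1. Leaving out both arrays with the high actin difference gave 7. Tumor and skin differ in the cells that they hold, and in such bulk samples fewer cells of a type and less RNA per cell cannot be told apart.

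**Figure D1:**
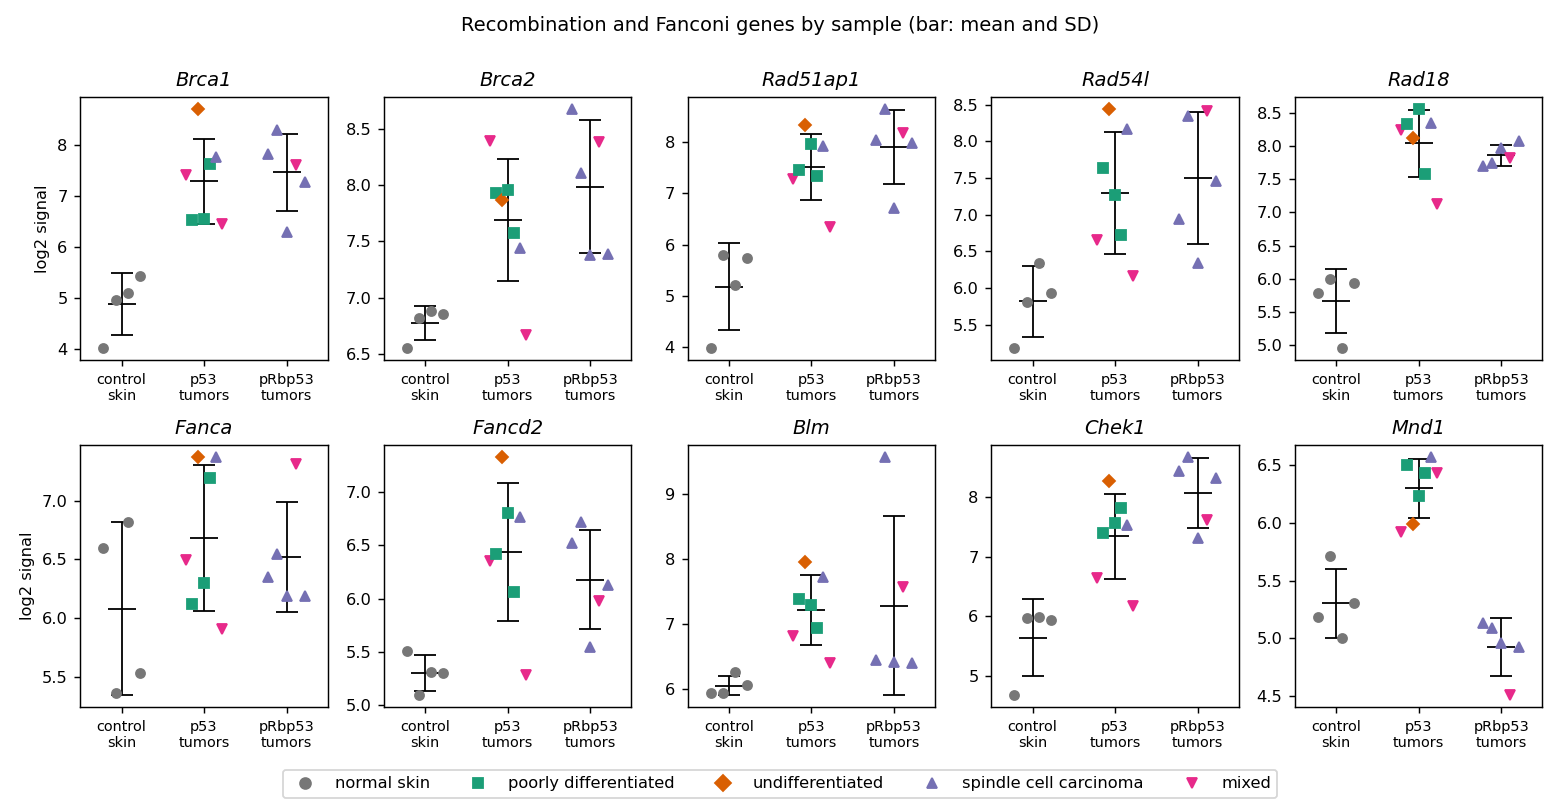
Log2 signal of the brightest probeset of each of the 10 genes (vertical axis, own range in each panel) in every sample, by group on the horizontal axis, with histology given by the marker shape, and the mean and SD of each group drawn as a bar. Rad18 spans 4.95 to 5.99 in control skin and 7.12 to 8.57 in the tumors, while Mnd1 spans 5.92 to 6.58 in p53 tumors and 4.50 to 5.13 in pRbp53 tumors.

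The genes that act in strand exchange are described first. Brca1, a ubiquitin ligase that promotes end resection and recruits Brca2 through Palb2, had log2 signals of 4.03, 4.97, 5.11 and 5.43 in control skin. The 7 p53 tumors gave 7.41, 6.52, 8.69, 6.55, 7.61, 7.76 and 6.44, and the 5 pRbp53 tumors gave 7.82, 8.29, 6.29, 7.61 and 7.28. The lowest tumor thus lay above the highest control skin. Across all tumors Brca1 was higher by 2.47 ± 0.40 (SE, adjusted p = 5.92e-04), or 5.55-fold, and the call was kept under every alternative, with an adjusted p between 2.56e-05 and 0.0104.

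Rad51ap1, which stimulates strand invasion, behaved alike. Its signals were 3.99, 5.79, 5.21 and 5.74 in control skin, with control skin 1 the lowest. The p53 tumors gave 7.28, 7.45, 8.31, 7.95, 7.34, 7.92 and 6.34 and the pRbp53 tumors 8.04, 8.63, 6.70, 8.17 and 7.97, without overlap. The difference was 2.49 ± 0.39 (SE, adjusted p = 4.04e-04), or 5.63-fold. All 4 probesets of Rad51ap1 passed and none overlapped between tumors and control skin, with differences from 1.15 to 2.49.

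Brca2, which acts on resected ends to start strand exchange, showed a smaller difference. It spanned only 6.55 to 6.88 in control skin, 6.67 to 8.39 in the p53 tumors (median 7.87) and 7.38 to 8.68 in the 5 pRbp53 tumors. Of the 12 tumors, 11 lay above all control skin and p53 tumor 7 lay within it. The difference was 1.04 ± 0.28 (SE, adjusted p = 0.0194), and it did not pass without control skin 1 (adjusted p = 0.0783) or control skin 2 (adjusted p = 0.0519).

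Rad54l, a motor protein of the SWI/SNF family that acts in strand exchange, rose by 1.56 ± 0.42 (SE, adjusted p = 0.0206). Control skin spanned 5.18 to 6.35, the p53 tumors 6.16 to 8.44 (median 7.26), and the pRbp53 tumors gave 6.95, 8.34, 6.34, 8.42 and 7.46. The lowest tumors, p53 tumor 7 and pRbp53 tumor 3, reached into the range of control skin. The call was lost without control skin 1, 2 or 4 (adjusted p from 0.0515 to 0.0971) and with the mean of its 4 probesets, at 0.69 ± 0.24 (adjusted p = 0.0530).

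Rad18 had the smallest error of the 10 differences relative to its size. Control skin gave 5.78, 5.99, 4.95 and 5.94, the p53 tumors 8.24, 8.33, 8.12, 8.57, 7.59, 8.36 and 7.12, and the pRbp53 tumors 7.71, 7.75, 7.98, 7.82 and 8.08. Every tumor lay above every control skin by more than 1 log2 unit. The difference was 2.31 ± 0.23 (SE, adjusted p = 3.73e-06), or 4.95-fold, and all 4 probesets of Rad18 passed, with differences from 1.40 to 2.31. The pRbp53 tumors had an SD of 0.16 (n = 5), against 0.51 (n = 7) in the p53 tumors.

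Chek1, the kinase that halts the cell cycle when replication stalls, gave 4.68, 5.97, 5.98 and 5.94 in control skin. The p53 tumors gave 6.65, 7.39, 8.27, 7.56, 7.82, 7.54 and 6.17, and the pRbp53 tumors 8.43, 8.67, 7.31, 7.61 and 8.31. The groups did not overlap, although p53 tumor 7 lay close to the upper 3 controls. Chek1 rose by 2.0 ± 0.39 (SE, adjusted p = 0.00261), or 4.0-fold.

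The Fanconi genes gave a weaker picture. Fancd2, the ubiquitinated protein at the centre of the pathway, spanned 5.09 to 5.51 in control skin, 5.28 to 7.33 in the p53 tumors (median 6.42) and 5.55 to 6.72 in the pRbp53 tumors. Its difference of 1.02 ± 0.28 (SE, adjusted p = 0.0240) was not called when any 1 of the 4 control skin arrays was left out (adjusted p from 0.0513 to 0.0837) or with the mean of its probesets (0.41 ± 0.14, adjusted p = 0.0574). Fanca, a core complex member, spanned 5.36 to 6.82 in control skin and 5.91 to 7.37 in the tumors, which overlapped widely. Its difference of 0.54 ± 0.33 (SE, adjusted p = 0.323) did not pass. With array weights Fanca stood at 0.92 ± 0.25 and passed (adjusted p = 0.0101).

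Blm separated the groups without passing the test. All 12 tumors, at 6.40 to 9.57, lay above control skin at 5.95 to 6.26, and the difference was 1.19 ± 0.45 (SE, adjusted p = 0.0950). The pRbp53 tumors gave 6.45, 9.57, 6.42, 7.57 and 6.41, so 3 of the 5 were close to control skin and pRbp53 tumor 2 was the highest of all samples. Without pRbp53 tumor 2 the difference was 0.98 ± 0.29 and passed (adjusted p = 0.0371). In all, 5 of the 10 genes were higher in every tumor than in every control skin, against 3.86% of all genes.

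Within a gene the probesets did not always give the same result. Of the 30 probesets, 29 had a difference above 0 and 17 passed as higher, against 6.36% of all probesets. In 11 of the 30 the groups did not overlap, against 3.07%. The probesets that did not pass were mostly dim. For Brca1, 3 probesets passed at 1.59 to 2.47 and the fourth stood at 0.15 ± 0.12 (SE, adjusted p = 0.491). For Chek1, 3 passed at 0.62 to 2.32, and the other two stood at 0.15 and 0.02. For Rad54l and Fancd2 only the brightest of 4 passed, and the others ran from 0.13 to 0.55 for Rad54l and from −0.19 to 0.63 for Fancd2. Both probesets of Fanca missed the threshold, at 0.54 and 0.43. Brca2, Blm and Mnd1 each had 1 probeset. Which part of the transcripts each probeset reads is not known here.

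**Figure D2:**
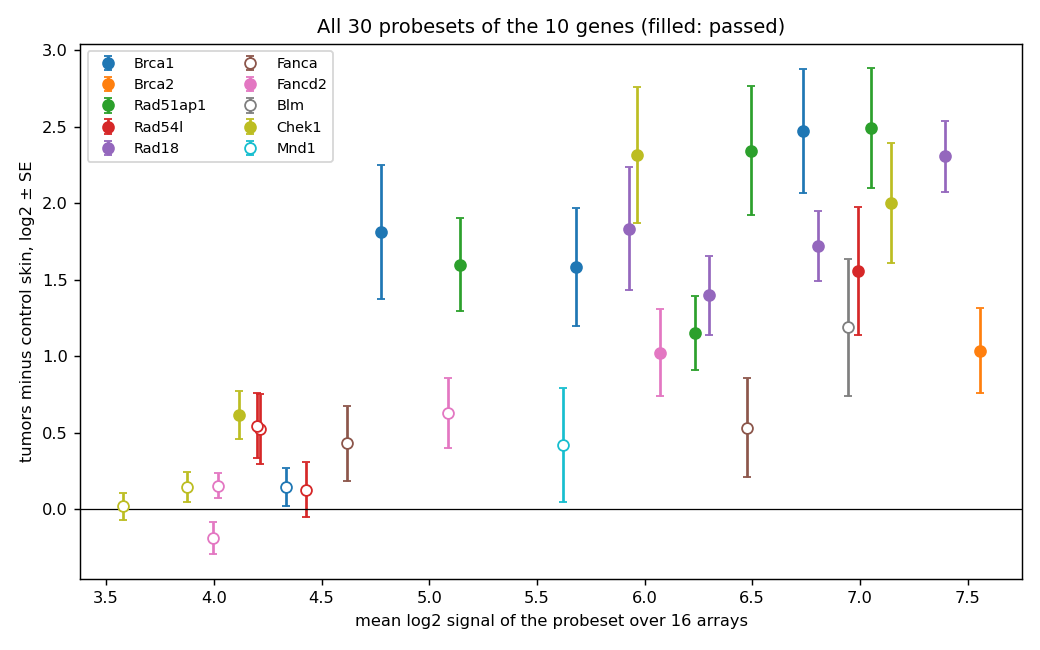
Difference between tumors and control skin (log2, with SE) against the mean log2 signal of the probeset over 16 arrays, for the 30 probesets of the 10 genes, coloured by gene and filled where the adjusted p was under 0.05. The 17 filled points lie at differences from 0.62 to 2.49, and most open points lie at low signal.

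Compared with control skin separately, both genotypes called 6 of the 10 genes higher. These comparisons share the 4 control skin samples and their estimate of the spread. In the p53 tumors the 6 were Brca1, Rad51ap1, Rad18, Fancd2, Chek1 and Mnd1, against a background of 6.64% of genes. In the pRbp53 tumors they were Brca1, Brca2, Rad51ap1, Rad54l, Rad18 and Chek1, against 6.66%. Groups did not overlap for 6 genes in the p53 tumors, against 6.50% of genes, and for 7 in the pRbp53 tumors, against 11.3%.

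Brca1 was higher by 2.4 ± 0.45 (SE, adjusted p = 0.00251) in the p53 tumors and by 2.57 ± 0.48 (adjusted p = 0.00248) in the pRbp53 tumors. Rad51ap1 was higher by 2.33 ± 0.42 and 2.72 ± 0.45, and Rad18 by 2.38 ± 0.26 and 2.20 ± 0.28, in the same order. Chek1 was higher by 1.70 ± 0.39 (adjusted p = 0.0101) and by 2.42 ± 0.42 (adjusted p = 0.00135), and the first of these missed the threshold when each gene was tested on its own variances (adjusted p = 0.0501). Brca2 stood at 0.91 ± 0.30 (adjusted p = 0.0602) in the p53 tumors and rose by 1.21 ± 0.32 (adjusted p = 0.0212) in the pRbp53 tumors. Rad54l stood at 1.47 ± 0.47 (adjusted p = 0.0530) and rose by 1.68 ± 0.50 (adjusted p = 0.0387). For Fancd2 the order was the other way, with a rise of 1.13 ± 0.31 (adjusted p = 0.0266) in the p53 tumors and a value of 0.88 ± 0.33 (adjusted p = 0.102) in the pRbp53 tumors. The p53 call of Fancd2 was lost when any 1 of the 4 control skin arrays was left out (adjusted p from 0.0536 to 0.0814). Without p53 tumor 7, the tumor with the high actin difference, Brca2 and Rad54l also passed in the p53 tumors (adjusted p of 0.0104 and 0.0236) and Fancd2 passed in the pRbp53 tumors (adjusted p = 0.0362). The pRbp53 call of Brca2 was lost without control skin 1 or pRbp53 tumor 1 (adjusted p of 0.0685 and 0.0524). That of Rad54l was lost without control skin 1, 2 or 4 or pRbp53 tumor 2, 4 or 5 (adjusted p from 0.0666 to 0.123). A call in 1 genotype and not in the other does not show that they differ, and that difference is tested next.

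The second comparison set the pRbp53 tumors, which lose pRb in addition, against the p53 tumors (n = 5 and 7, adjusted p threshold 0.1). These groups also differ in histology, with spindle cell carcinoma in 4 of 5 pRbp53 and 1 of 7 p53 tumors. All 3 poorly differentiated tumors are p53 tumors, so a difference between the groups cannot be assigned to pRb loss alone. Of the 10 genes only Mnd1 passed, and it was lower in the pRbp53 tumors. Over all genes 0.0824% were called lower and 0.159% either way, so few genes of any kind separated the genotypes. Mnd1 had log2 signals of 5.92, 6.51, 5.99, 6.23, 6.43, 6.58 and 6.44 in the p53 tumors and of 5.13, 5.09, 4.96, 4.50 and 4.92 in the pRbp53 tumors. Control skin gave 5.19, 5.72, 5.0 and 5.30. The p53 tumors therefore lay above all other samples, and the pRbp53 tumors lay below the median of control skin, 5.24. The genotypes did not overlap, which held for 0.555% of genes in this direction.

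The difference of Mnd1 between the genotypes was −1.38 ± 0.15 on the log2 scale (SE, adjusted p = 0.00411), so its signal was 2.60-fold lower in the pRbp53 tumors. Leaving out any tumor gave values from −1.44 to −1.27, all past the threshold. With the grade group as a covariate the difference was −1.40 and also passed (adjusted p = 0.0265). Among the undifferentiated and spindle tumors alone, of which 2 are p53 and 4 pRbp53 tumors, it was −1.26 (adjusted p = 0.129). Against control skin Mnd1 rose by 1.0 ± 0.17 in the p53 tumors (SE, adjusted p = 0.00105) and stood at −0.38 ± 0.18 in the pRbp53 tumors (adjusted p = 0.195), where it passed as lower with array weights (−0.45, adjusted p = 0.0341). Pooled over genotypes, this gave 0.42 ± 0.37, which did not pass (adjusted p = 0.514). The mean of the single Mnd1 probeset over all arrays lies near the median signal of the arrays, which ran from 5.63 to 5.76. Its means in the pRbp53 tumors (4.92) and in control skin (5.30) lie below that. How much of this dim signal is background is not known.

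Partners of Mnd1 in meiotic recombination showed no such difference that passed. Psmc3ip, with which Mnd1 forms a heterodimer, differed by −0.13 ± 0.18 between the genotypes (SE, adjusted p = 0.864), and it rose against control skin by 1.71 ± 0.34 in the p53 tumors and by 1.58 ± 0.37 in the pRbp53 tumors (adjusted p of 0.00425 and 0.0107). The recombinase Dmc1 was dim in all groups and differed by 0.15 ± 0.13 between genotypes. None of the 64 other pathway genes passed between the genotypes.

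The other 9 genes did not pass between the genotypes, and their 95% intervals allow differences of varied size. Chek1 came nearest, at 0.72 ± 0.36 (SE, adjusted p = 0.574), with an interval from −0.07 to 1.52, and the genotypes overlapped. Brca1, Rad51ap1 and Rad54l stood at 0.17, 0.39 and 0.21, with intervals from −0.78 to 1.13, −0.42 to 1.20 and −0.82 to 1.23. Brca2 stood at 0.30, from −0.38 to 0.97, and Rad18 at −0.18, from −0.68 to 0.32, the narrowest of these intervals. Fanca and Fancd2 stood at −0.16 and −0.26, from −0.84 to 0.52 and from −0.96 to 0.45. Blm stood at 0.07 with the widest interval, from −1.08 to 1.22, and its sign turned without p53 tumor 7 or pRbp53 tumor 2 or 4. Keratinocyte markers differed in spread between the genotypes as well. The mean of 5 basal keratinocyte genes spanned 5.04 to 12.64 in the p53 tumors and 4.78 to 6.09 in the pRbp53 tumors, with 0 of 5 genes past the threshold, and its part in the difference of Mnd1 was not tested.

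**Figure D3:**
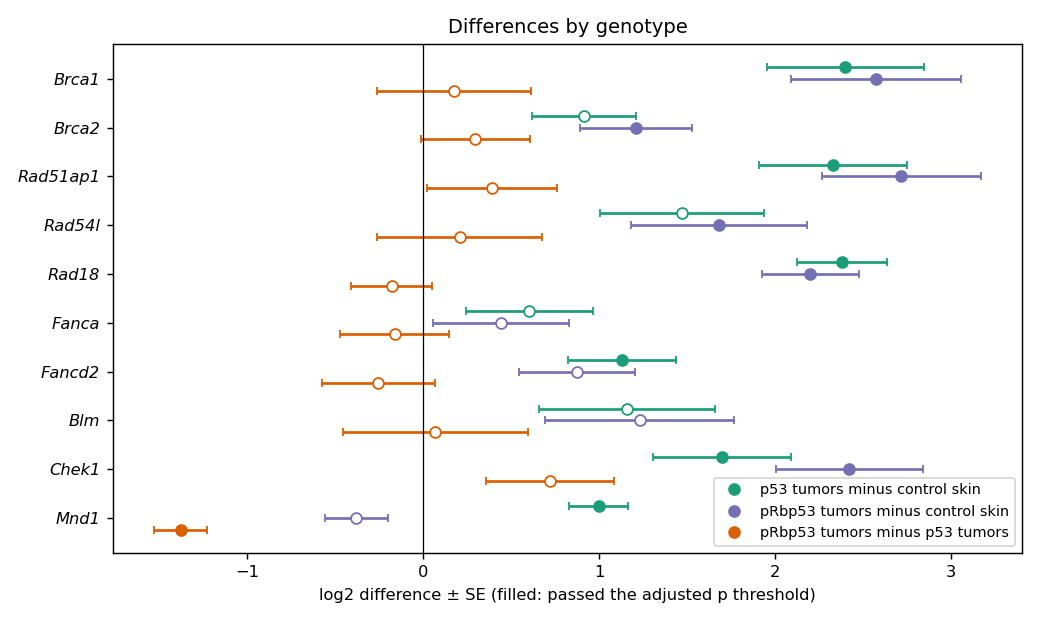
Log2 differences (horizontal axis, with SE) of the 10 genes for p53 tumors against control skin, pRbp53 tumors against control skin and pRbp53 against p53 tumors, filled where the adjusted p passed (0.05 against skin, 0.1 between genotypes). Only Mnd1 has a filled point between the genotypes, at −1.38, and its difference from control skin lies at 1.0 in p53 tumors and at −0.38 in pRbp53 tumors.

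By histology the 5 spindle cell carcinomas had a mean log2 signal of 7.49 ± 0.76 (SD) for Brca1, 7.85 ± 0.70 for Rad51ap1 and 8.05 ± 0.60 for Chek1. The 3 poorly differentiated carcinomas had 6.89 ± 0.62, 7.58 ± 0.33 and 7.59 ± 0.22. The 3 mixed tumors had 7.15 ± 0.62, 7.26 ± 0.92 and 6.81 ± 0.73, and the 1 undifferentiated tumor, p53 tumor 3, had 8.69, 8.31 and 8.27. That tumor was the highest of the 12 for 4 of the 10 genes. Rad18 was nearly level, at 7.98 ± 0.26 in spindle, 8.16 ± 0.51 in poorly differentiated and 7.73 ± 0.57 in mixed tumors.

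The third comparison set the 6 undifferentiated or spindle tumors against the 3 poorly differentiated ones. It called 0 of the 10 genes with limma, against 9.12% of all genes either way. Read from their brightest probesets, 1 of the 10, Mnd1, had an unadjusted p under 0.05, against 25.0% of all genes, and each gene tested on its own variances gave 0 calls as well. Mnd1 stood at −0.95 ± 0.37 (SE, adjusted p = 0.177), Brca1 at 0.79 ± 0.50 (interval −0.34 to 1.93) and Chek1 at 0.50 ± 0.31 (interval −0.20 to 1.19). The poorly differentiated tumors are all p53 tumors and 4 of the 6 others are pRbp53 tumors, so genotype and histology overlap. With genotype as a covariate Mnd1 stood at −0.11 ± 0.19 (adjusted p = 0.825). Without p53 tumor 6, the spindle cell carcinoma of the p53 group, 1 gene passed, Mnd1 at −1.17 (adjusted p = 0.0364). Beside these values, 5 of 6 fibroblast and mesenchyme markers and 4 of 6 leukocyte markers were higher in the undifferentiated or spindle tumors, and their part in the values was not tested.

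Other genes of recombination, crosslink repair and fork protection place these 10 in their pathways. Of 64 such genes, 18 rose in the tumors against control skin, 1 fell (Sycp3) and 45 did not pass, with a median of 0.38. Over all genes 7.57% were called higher. Of the 18, 7 passed whichever array was left out, namely Chek2, Clspn, Eme1, Fanci, Hus1, Psmc3ip and Rad1. Without control skin 1 the number that passed was 7, and with array weights it was 30. The 10 genes were chosen with such results known, so their larger median is a description only.

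In end resection, 2 of 5 genes rose, the exonuclease Exo1 by 1.87 ± 0.49 (SE, adjusted p = 0.0175) and the nuclease Mre11a by 0.92 ± 0.24, while Dna2 stood at 0.97 ± 0.51 (adjusted p = 0.245). Of 11 other genes of strand exchange, 4 rose. Among them were Rad54b, the paralog of Rad54l, by 1.36 ± 0.34 (adjusted p = 0.0135), Rad51c by 0.70 ± 0.21 and Bard1, the partner of Brca1, by 0.56 ± 0.17 (adjusted p = 0.0385). Sem1, a small protein bound to Brca2, passed at 0.39 ± 0.12. Palb2, the bridge from Brca1 to Brca2, stood at 0.35 ± 0.20 (adjusted p = 0.274) and Swi5 at 0.76 ± 0.26 (adjusted p = 0.0701). Without control skin 1 the calls of Exo1, Mre11a, Rad54b, Rad51c and Bard1 were lost. Those of Exo1, Rad51c and Bard1 were also lost without control skin 2 or 4, and that of Bard1 without p53 tumor 6. Sem1 kept its call in only 5 of the 16 fits that leave out 1 array.

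Of 12 other Fanconi genes 4 rose. The ubiquitin-conjugating enzyme Ube2t, which acts on Fancd2, rose by 1.53 ± 0.40 (SE, adjusted p = 0.0180) and the helicase Brip1 by 1.39 ± 0.34 (adjusted p = 0.0109), both of which lost their call without control skin 1. Fanci, which pairs with Fancd2, rose by 0.70 ± 0.17 (adjusted p = 0.0117), and the nuclease scaffold Slx4 passed at 0.64 ± 0.20 and kept its call in 6 of the 16 fits that leave out 1 array. The core complex members Fancb, Fancc, Fance, Fancf, Fancg, Fancl and Fancm ran from −0.38 to 0.51 and did not pass, as did Fanca. Usp1, which removes ubiquitin from Fancd2, stood at 0.83 ± 0.34 (adjusted p = 0.127).

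Of 8 genes that process joint molecules only Eme1, of the Mus81 nuclease, rose, by 1.44 ± 0.27 (SE, adjusted p = 0.00210). The partners of Blm stood at 0.31 ± 0.16 for Top3a and 0.20 ± 0.18 for Rmi1, without passing. The nuclease Gen1 stood at 1.04 ± 0.40 (adjusted p = 0.102) and the helicase Recql4 at 0.75 ± 0.25 (adjusted p = 0.0643). Checkpoint genes around Chek1 rose most often, in 6 of 12. Claspin, Clspn, the adaptor through which Chek1 is activated, rose by 2.12 ± 0.46 (adjusted p = 0.00518), Chek2 by 1.37 ± 0.26 and the fork protection factor Tipin by 1.31 ± 0.32, which was not called without control skin 1. The kinase Atr, upstream of Chek1, stood at 0.57 ± 0.21 (adjusted p = 0.0894). None of 8 genes of post-replication repair, where Rad18 acts, passed, and Pcna, its substrate, stood at 0.95 ± 0.35 (adjusted p = 0.0869). Its partners Ube2a and Ube2b, the conjugating enzymes, stood at 0.47 ± 0.28 and −0.34 ± 0.15, and Rev3l, the catalytic subunit of a translesion polymerase, at −0.36 ± 0.43.

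Of 8 meiotic genes Psmc3ip rose, by 1.65 ± 0.31 (SE, adjusted p = 0.00181), Sycp3, of the synaptonemal complex, fell by 0.55 ± 0.15 (adjusted p = 0.0266), and Spo11, which makes meiotic breaks, stood at 0.41 ± 0.44. The call of Sycp3, a dim probeset, was lost without control skin 2, 3 or 4. In end joining, the other main route of break repair, 2 of 7 rose, the Ku subunits Xrcc5 and Xrcc6 by 1.06 ± 0.30 and 0.94 ± 0.21, and the ligase Lig4 stood at 1.07 ± 0.53 (adjusted p = 0.216). Xrcc5 was not called without control skin 1 or 3. Against control skin, 12 of the 64 genes rose in the p53 tumors and 16 in the pRbp53 tumors, against 6.64% and 6.66% of all genes. Of the 64, 1 fell, Fancg, in the p53 tumors, a call kept in 8 of the 16 fits that leave out 1 array. By histological grade, 2 of the 64 were higher in undifferentiated or spindle tumors, Slx4 by 0.69 ± 0.12 and Rmi1 by 0.57 ± 0.14. Over all genes 9.12% were called either way. Slx4 lost that call without p53 tumor 2, and Rmi1 kept it in 2 of the 9 fits that leave out 1 tumor.

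**Figure D4:**
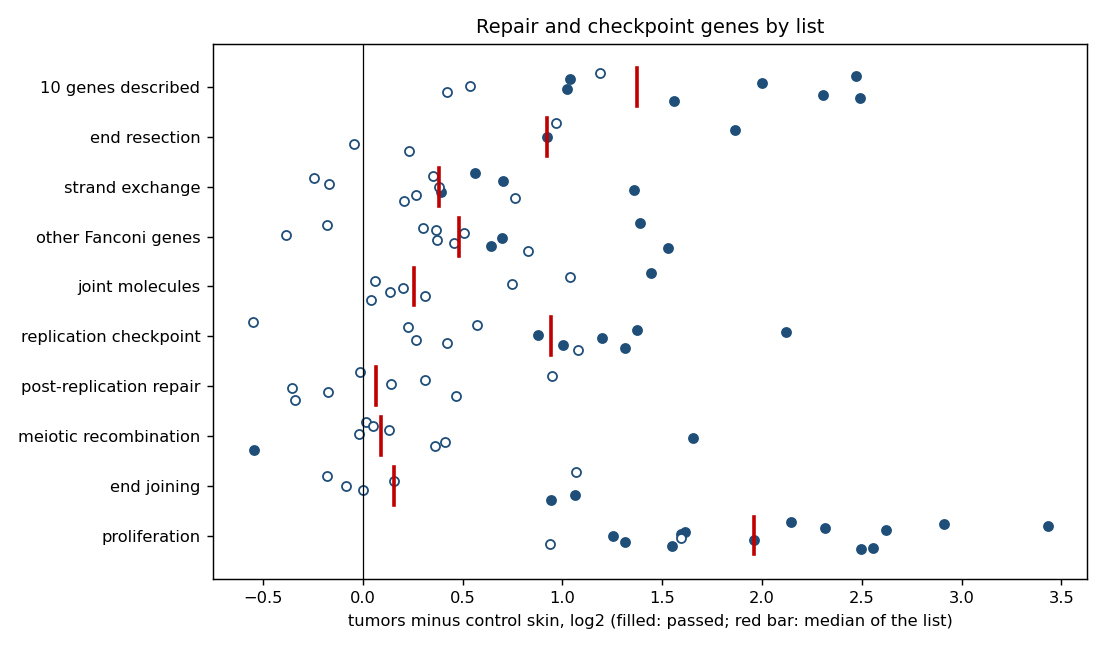
Log2 difference between tumors and control skin (horizontal axis) for each gene of 10 lists (rows), filled where the adjusted p was under 0.05, with a red bar at the median of the list. The median is 1.38 for the 10 genes, 0.94 for the replication checkpoint, 0.07 for post-replication repair and 1.96 for proliferation.

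Markers of dividing cells moved with these genes. Of 15 proliferation genes 13 rose in the tumors, against 7.57% of all genes, with a median of 1.96. They were led by Bub1 at 3.43 ± 0.57 and Birc5 at 2.91 ± 0.39 (SE). Mki67 at 0.939 ± 0.455 (adjusted p = 0.203) and Mcm5 at 1.59 ± 0.54 (adjusted p = 0.0614) did not pass. The mean log2 signal of the 15 genes spanned 6.77 to 7.85 in control skin, with control skin 1 the lowest. It spanned 7.84 to 10.51 in the p53 tumors and 8.48 to 10.53 in the pRbp53 tumors. The same p53 tumor 7 that was lowest for this mean was the lowest of the 12 tumors for 8 of the 10 genes. It is also the array with the highest actin difference, 1.67, and the part of RNA quality in its low values was not tested.

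Over the 12 tumors, the mean of the proliferation genes and the signal of each of the 10 genes were correlated by permutation test, with 100000 resamples and adjustment over the 10 relations. Rad54l gave r = 0.913 and rho = 0.958 (adjusted permutation p = 0.0001 for each, from an unadjusted 1e-05, the smallest that the resamples can give). It gave r = 0.918 without p53 tumor 7 and pRbp53 tumor 3, the tumors farthest from the median, and r = 0.908 within the 7 p53 tumors. Rad51ap1 gave r = 0.927 and rho = 0.839 (adjusted permutation p of 0.00025 and 0.00423), and r = 0.778 without those tumors. Fancd2 gave r = 0.862 and rho = 0.713 (adjusted permutation p of 0.00123 and 0.0294), and r = 0.647 without them. Blm gave r = 0.773 and rho = 0.909 (adjusted permutation p of 0.0126 and 0.0005), and r = 0.868 without them. The level of these 4 genes thus followed the proliferation markers from tumor to tumor.

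For other genes the relation was looser. Brca1 gave r = 0.710 and rho = 0.671 (adjusted permutation p of 0.0174 and 0.0410), with r = 0.517 without p53 tumor 7 and pRbp53 tumor 3, and Chek1 gave r = 0.702 and rho = 0.580 (adjusted permutation p of 0.0186 and 0.0743), with r = 0.418. Fanca gave r = 0.591 and rho = 0.601 (adjusted permutation p of 0.0581 and 0.0698), with r = 0.372. Brca2 gave r = 0.564 and rho = 0.315 (adjusted permutation p of 0.0714 and 0.354) and Rad18 gave r = 0.521 and rho = 0.371 (adjusted permutation p of 0.0907 and 0.295). Without those tumors Brca2 and Rad18 stood at −0.087 and 0.088, so their relation rested on them. Within the 7 p53 tumors alone, r ran from 0.602 (Brca1) to 0.968 (Rad51ap1) for the 9 genes other than Mnd1. These tumors include p53 tumor 7, with its high actin difference. For Mnd1 the genotypes form separate clusters, so no pooled value is given, and within the 7 p53 tumors r was −0.217. The pRbp53 tumors (n = 5) are too few for a value of their own.

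**Figure D5:**
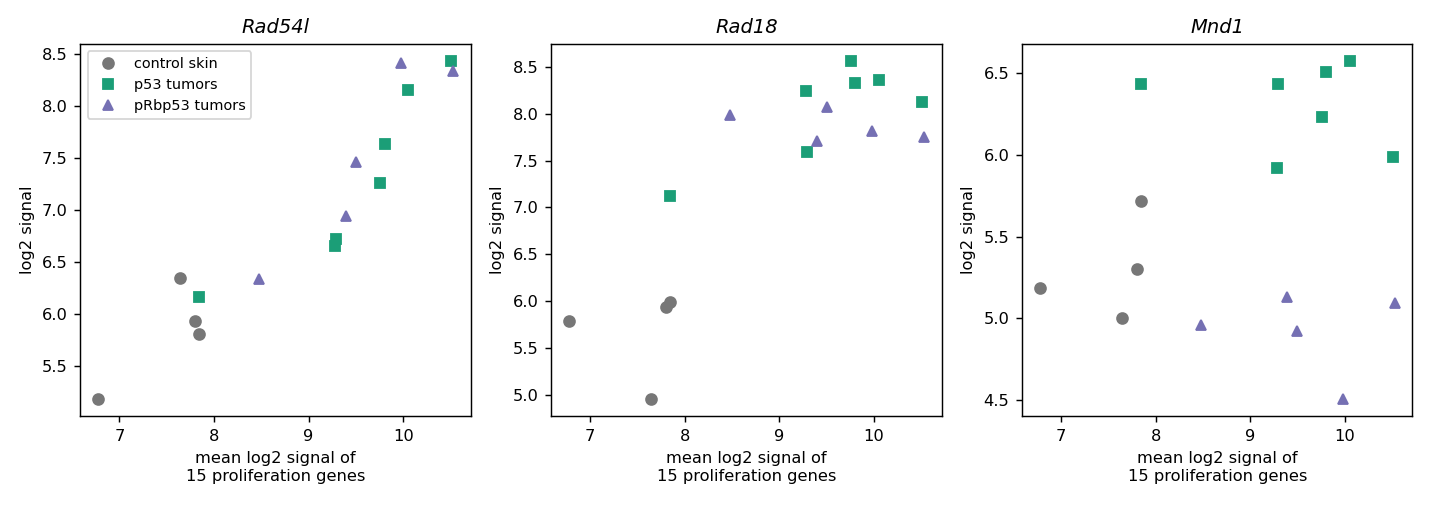
Log2 signal of Rad54l, Rad18 and Mnd1 (vertical axes, own range) against the mean log2 signal of 15 proliferation genes (horizontal axis) in the 16 samples, by group. Over the 12 tumors r is 0.913 for Rad54l and 0.521 for Rad18, while the p53 and pRbp53 tumors form separate layers for Mnd1.

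Among the 10 genes themselves, the 36 pairs without Mnd1 had a median r of 0.541 over the 12 tumors (range −0.036 to 0.854). The 9 pairs with Mnd1 were taken within the 7 p53 tumors alone, because its genotypes form separate clusters, and had a median of −0.222 (range −0.610 to −0.024). Outside the 10, the genes most like their mean over the 12 tumors were Nek2 (r = 0.967), Ttk (0.964), Depdc1b (0.956), Cdca2 (0.953) and Fen1 (0.951). These values were taken from the highest of 18193 genes on the same arrays and carry no test.

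Markers of the tissues in the samples also moved between tumors and control skin. All 8 skeletal muscle genes fell (led by Myh4, by 9.13 ± 0.51, and Tnnc2, by 7.87 ± 0.97), and their mean spanned 13.33 to 13.58 in control skin and 4.81 to 8.68 in the tumors. All 4 adipocyte genes fell (Adipoq by 6.31 ± 0.78 and Cidec by 3.61 ± 0.37), with means of 7.66 to 9.999 and of 4.70 to 6.73. All 5 cornified epidermis genes fell (Krtdap by 7.95 ± 1.21 and Krt1 by 7.74 ± 0.94), with means of 12.77 to 13.02 and of 4.84 to 9.66. Of 5 basal keratinocyte genes 3 fell, among them Krt15 by 6.26 ± 1.54 and Col17a1 by 5.76 ± 1.47, and their mean of 11.91 to 12.13 in control skin was matched only by p53 tumor 7, at 12.64. None of 6 fibroblast genes passed (Col1a1 at −1.53 ± 0.79 and Col1a2 at −1.10 ± 0.57). Of 6 leukocyte genes Cd3g fell, by 3.62 ± 0.36, with Ptprc at −0.94 ± 0.65, and of 4 endothelial genes Tek fell, by 2.14 ± 0.55, with Cdh5 at 0.51 ± 0.39. Each of these last 3 lists held differences of both signs. Their medians were −0.35 for fibroblast, 0.04 for leukocyte and −0.15 for endothelial genes. Col17a1 was not called without control skin 1, nor Tek without control skin 1 or 4. Keratinocyte genes, which mark squamous tissue, were thus high in some p53 tumors and low in all 5 pRbp53 tumors. The part of tissue makeup in the differences of the 10 genes was not tested.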

How the data were processed

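RNA of 4 normal skin samples and 12 carcinomas was hybridised to 16 Affymetrix MOE430 2.0 arrays. The deposited log2 signals were made by the authors with RMA (background correction, normalization across arrays and a summary per probeset, version not stated). They carry no detection call and no depth, so the precision rests on how many arrays there are. From 45101 probesets, 64 array controls were left out, and a 2016 annotation gave 1 gene symbol to 34945 of the 45037 tested.

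Samples were grouped by their titles and by the histology in the labels. Linear models were fitted to all probesets with limma 3.58.1 in R 4.3.3, with Benjamini-Hochberg adjustment over all 45037 probesets, so that every adjusted p in the text comes from limma unless another test is named. The threshold was 0.05, and 0.1 between genotypes as in the study's methods. Errors are the standard error (SE) for a difference and the standard deviation (SD) for a mean of a group, and all tests are two-sided. A gene passed, rose or fell when its brightest probeset did. Comparisons with control skin by genotype used all 16 arrays in 3 groups. The fits were tested on simulated data with known changes.

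The members and the lists of other genes were chosen with earlier results of these data known. Named genes are the 10 members, the 3 genes of each pathway list with the largest difference and direct partners, the 2 of each marker list with the largest difference, and the 5 genes most like the mean of the members. Ube2b, Dmc1, Sem1, Slx4, Mki67, Mcm5, Fancg and the other core Fanconi genes were named beyond this rule where a count or a partner asked for it, after their values were seen. Rbbp8, Xrcc2, Fan1, Dclre1c, Ccnb1, Plin1, Cfd and Flg2 were not analysed here. The position of the probesets in the genome was not used here.

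Alternatives were a replicate block, quantile normalization, median centring, brighter probesets, a trended robust prior, array weights, a test with each probeset's own variances, the mean of a gene's probesets, 2 groups alone, covariates and subsets, leaving out each array or both arrays with a high actin difference, and averaging control skin 2 and 4. Grade among p53 tumors alone and the settings for the other pathway genes were added after the data were seen. Correlations used scipy 1.17.1 and figures matplotlib 3.10.9.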

Additional observations from a re-analysis of the deposited data

Results flagged for a closer look

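In control skin 1 the signals of Brca2 and Chek1 lay apart from the other 3 control skin samples. Brca2 was 6.553 there, against 6.823 to 6.878, and Chek1 was 4.676, against 5.941 to 5.983. The gap to the nearest sample, divided by the range of the group, was 0.831 for Brca2 and 0.968 for Chek1, against a critical value of 0.829 for 4 samples. Of 30 groups of values examined, these 2 were set apart, and chance sets apart about 1 in 20. The mean of the 15 proliferation genes was also lowest in control skin 1, at 6.77 against 7.64 to 7.85, and its part in these values was not tested. Without control skin 1, Chek1 kept its call against the tumors and Brca2 did not.

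Mnd1 differed between the genotypes of the tumors, by −1.379 on the log2 scale in pRbp53 against p53 tumors (limma adjusted p = 0.00411), with all 5 pRbp53 tumors below all 7 p53 tumors.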

How the results depend on the processing

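Across the alternatives, the calls of Brca1, Rad51ap1, Rad18 and Chek1 in all tumors against control skin were kept. The number of the 10 genes called there was 7, between 4 and 8 when an array was left out, 4 with control skin 2 and 4 averaged and 9 with array weights, which added Fanca and Blm. The number ran from 5 to 8 in the p53 tumors and from 4 to 7 in the pRbp53 tumors when an array was left out, around 6 in both, and array weights gave 9 and 8, with Mnd1 lower in the pRbp53 tumors. Between the genotypes the count of 1 stayed at 1 whichever tumor was left out. It was 0 with the replicate block (Mnd1 at −1.30, adjusted p = 0.145), 0 with the undifferentiated or spindle tumors alone, and 0 among the brighter probesets, which do not include Mnd1 by construction. The methods' t-test, run with unequal variances and the same adjustment and thresholds, called 8 of the 10 in all tumors, 8 in the p53 and 4 in the pRbp53 tumors, 1 between the genotypes and 0 by grade. By grade, the count of 0 ran from 0 to 1 when an array was left out. Whether the replicate numbers pair the samples is not known. Of 13 pairs with the same number, 3 had deviations that correlated above 0.1. They were control skin 1 with p53 tumor 1 (0.12), p53 with pRbp53 tumor 1 (0.172) and p53 with pRbp53 tumor 4 (0.25). With no reference for such values, this cannot settle a pairing, nor whether a call lost under the block reflects a weaker effect. The block left the counts of 7 and 0 unchanged for all tumors and for grade, and 7 genes were called in the p53 and 6 in the pRbp53 tumors.

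Signs turned only for differences that had not passed. Between genotypes, Blm was −0.066 without the arrays of high actin difference. With the grade covariate, Brca1, Rad54l and Blm were −0.311, −0.017 and −0.094. With undifferentiated or spindle tumors alone, Brca1, Rad51ap1, Rad54l and Blm were −0.806, −0.280, −1.027 and −0.625. With a tumor left out, Brca1 ran from −0.035 to 0.465, Rad54l from −0.020 to 0.499 and Blm from −0.502 to 0.289. By grade, Fanca was −0.289 with the replicate block, and Brca2 was 0.006 with quantile normalization and 0.016 with median centring. The mean of probesets gave Rad18 0.218, Fanca −0.047 and Fancd2 −0.102, and Rad18 was 0.079 with genotype as a covariate and in the p53 tumors alone. With a tumor left out, Brca2 ran from −0.183 to 0.077, Rad18 from −0.449 to 0.040, Fanca from −0.077 to 0.463, Fancd2 from −0.112 to 0.263 and Blm from −0.215 to 0.417. The causes were not tested. The files give no background signal, so how much of a dim probeset is background is not known.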
